A study of Homo sapiens with 6 samples.

Results

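TGF-beta and BMP pathway genes are the 49 genes examined here: ligands, receptors, SMAD proteins, antagonists, other negative regulators and the ID genes. They were taken by gene symbol from the expression tables, and all 49 were found among 23245 usable rows. The cells were L3.6pl, an established human pancreatic cancer line, cultured in Minimum Essential Media plus fetal calf serum, with no drug named. The parental group (3 libraries, genotype WT) was compared with the group titled ARID1Ako (3 libraries, genotype ARID1A-deficient). Levels are in FPKM (sequenced fragments corrected for transcript length and library size), 1 value for every gene and library. The labels do not say how ARID1A was disrupted, whether the deficient cells were 1 clone or several, or whether the triplicates were separate cultures. The p-values therefore measure only the spread between these libraries, which may be technical, and clonal differences and ARID1A deficiency cannot be told apart. Both groups derive from L3.6pl and share whatever other changes that line carries.

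In this pathway, secreted ligands bind pairs of type II and type I receptor kinases. TGF-beta and activin receptors phosphorylate SMAD2 and SMAD3, and BMP receptors phosphorylate SMAD1, SMAD5 and SMAD9. These SMADs join SMAD4 and enter the nucleus. SMAD6 and SMAD7 feed back on the receptors, and secreted proteins such as noggin, chordin and follistatin hold ligands away from them. In epithelial cells the TGF-beta branch is known for slowing growth and for promoting mesenchymal traits. Loss of SMAD4 is a well known event in pancreatic cancer. ARID1A is part of the SWI/SNF complex, which remodels chromatin.

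In ARID1Ako cells, transcripts of the secreted antagonists NOG, CHRD and FST rose, and so did TGFB2, SMAD3 and PMEPA1. BMP7, the inhibitory SMAD7, the receptors TGFBR1 and ACVR2B and the BMP-responsive gene ID2 fell. ID1 and ID3, of the same family as ID2, did not pass the threshold given below. The sizes were moderate, from 1.29-fold for PMEPA1 to 2.79-fold for TGFB2 among increases and from 1.55-fold for TGFBR1 to 2.78-fold for BMP7 among decreases (ratios of mean FPKM, n = 3 each). Genes were called with limma on log2(FPKM + 1) at a Benjamini-Hochberg adjusted p of 0.05, over genes averaging 0.5 FPKM or more. Of the 49 members, 40 reached that mean and 11 of them were called (27.5%), beside 15.9% of all 12826 genes tested. Higher calls were 6 of 40 (15%), beside 7.82% of all genes, and lower calls were 5 of 40 (12.5%), beside 8.11%. The median log2 fold change of the 40 was 0.00, and that of all genes tested was -0.01. The members were chosen with earlier results of these data known, so these shares are not independent evidence about the pathway.

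The count rested on single libraries. It was 3 higher and 2 or 3 lower after leaving out parental library 1 or 3 or any ARID1Ako library, and 9 higher and 8 lower without parental library 2. The same omissions took all genes tested from 12.3% called without parental library 1 to 7.52% without ARID1Ako library 3, and to 31.8% without parental library 2. NOG, SMAD3, TGFB2, BMP7 and SMAD7 were called in each of these 6 fits. Parental library 2 had the highest sum of FPKM, 792187 against 576084 to 725307 in the other libraries, and the lowest slope of values on log2 transcript length (-0.05, against -0.02 to 0.05). It was the highest or lowest of the 3 parental libraries for 90% of the 40 members and for 88.4% of all genes tested. The same shares were 80% and 78.4% for parental library 1, and 30% and 31.3% for parental library 3. The part of parental library 2 in each result was tested only by leaving it out. The depth of the libraries is unknown.

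ARID1A itself measured 11.8, 6.76 and 9.42 FPKM in parental cells and 3.55, 3.28 and 3.61 FPKM in the ARID1Ako libraries, a 2.68-fold lower mean (limma adjusted p = 0.00610). Epithelial markers (EPCAM, CDH1, KRT8, KRT18 and KRT19) were present. They summed to 3957 to 6114 FPKM in parental and 2652 to 3395 FPKM in ARID1Ako libraries, with none of the 5 past the threshold. All 5 had a lower mean in ARID1Ako libraries. For EPCAM, CDH1, KRT8 and KRT19 the groups did not overlap (limma adjusted p = 0.0828 to 0.101). Of 7 fibroblast markers, DCN and LUM were listed at 0 everywhere. The sum was 1.37 to 2.19 FPKM in parental and 1.40 to 1.71 FPKM in ARID1Ako libraries, most of it ACTA2. PDGFRA averaged 0.0365 FPKM in parental and 0.238 FPKM in ARID1Ako libraries, without overlap and under the minimum mean. Endothelial markers summed to 8.45 to 10.0 and 8.66 to 9.23 FPKM, and leukocyte markers to 8.41 to 9.68 and 5.86 to 7.43 FPKM. CDH5 (6.22 to 8.09 FPKM) and CD68 (5.75 to 9.68 FPKM) made up most of those sums. PECAM1 and CD68 were called lower (limma adjusted p = 0.0254 and 0.0346), while the leukocyte marker PTPRC and the endothelial marker KDR were at 0 in all parental libraries and reached 0.0442 and 0.0307 FPKM at most in ARID1Ako libraries. Their part in the results was not tested.

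Stretches just upstream of the start site are shown for the called members with the smallest adjusted p in each direction that have an entry in the RefSeq promoter table (GRCh38.p14), since members that changed together invite a look at shared letters. BMP7 and NOG are named only. Capitals mark matches on either strand to 4 motifs. Among these are the SMAD-binding palindrome GTCTAGAC, the shorter SMAD element CAGAC and the AP-1 site TGAGTCA. The other is the GC-rich element GGCGCC, described for SMADs of the BMP branch. The 250 bases end at the base before the start and are written 5′ to 3′ on the gene's strand. They lie at chr15:67065352-67065601 (plus strand) for SMAD3, chr1:218345086-218345335 (plus) for TGFB2, chr18:48950966-48951215 (minus) for SMAD7 and chr3:38453640-38453889 (plus) for ACVR2B.
SMAD3: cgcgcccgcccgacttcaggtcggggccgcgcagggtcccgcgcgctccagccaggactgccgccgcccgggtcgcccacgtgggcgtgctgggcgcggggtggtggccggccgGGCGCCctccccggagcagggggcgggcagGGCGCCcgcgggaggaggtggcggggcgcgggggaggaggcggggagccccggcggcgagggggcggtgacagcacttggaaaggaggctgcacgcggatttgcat
TGFB2: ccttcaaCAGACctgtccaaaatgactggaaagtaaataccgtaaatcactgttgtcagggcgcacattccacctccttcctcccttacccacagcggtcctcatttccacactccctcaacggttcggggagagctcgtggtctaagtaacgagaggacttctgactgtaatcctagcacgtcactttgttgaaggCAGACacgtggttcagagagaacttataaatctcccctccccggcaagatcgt
SMAD7: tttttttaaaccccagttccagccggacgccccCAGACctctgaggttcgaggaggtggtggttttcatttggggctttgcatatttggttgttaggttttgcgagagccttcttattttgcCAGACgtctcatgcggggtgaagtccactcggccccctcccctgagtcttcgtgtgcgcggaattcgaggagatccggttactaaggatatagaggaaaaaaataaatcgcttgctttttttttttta
ACVR2B: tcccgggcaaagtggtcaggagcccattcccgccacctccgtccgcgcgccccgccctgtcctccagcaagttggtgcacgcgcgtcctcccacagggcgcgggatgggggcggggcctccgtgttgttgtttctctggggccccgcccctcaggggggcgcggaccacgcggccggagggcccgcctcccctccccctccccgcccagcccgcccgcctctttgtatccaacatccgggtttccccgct

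SMAD3 held GGCGCC at 2 places and TGFB2 and SMAD7 held CAGAC at 2 places each, while the ACVR2B stretch held none of the searched letters. Over the 9 called members in the table, 3 held CAGAC, 3 held GGCGCC and none held GTCTAGAC or TGAGTCA. Over the 27 entries of tested members that were not called, 10 held CAGAC, 9 GGCGCC, 1 GTCTAGAC and 1 TGAGTCA. G and C made up 80.8%, 63.2% and 81.6% of the stretch in SMAD3, PMEPA1 and CHRD, which held GGCGCC. In the other called members with an entry this share was 48% to 79.6%. The part of base composition in the motif counts was not tested. Among 27305 genes of the table, 37.8% held CAGAC, 16.1% GGCGCC, 4.16% TGAGTCA and 0.176% GTCTAGAC in the same 250 bases. The shares are descriptions, since no factor binding was measured.

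**Figure D1:**
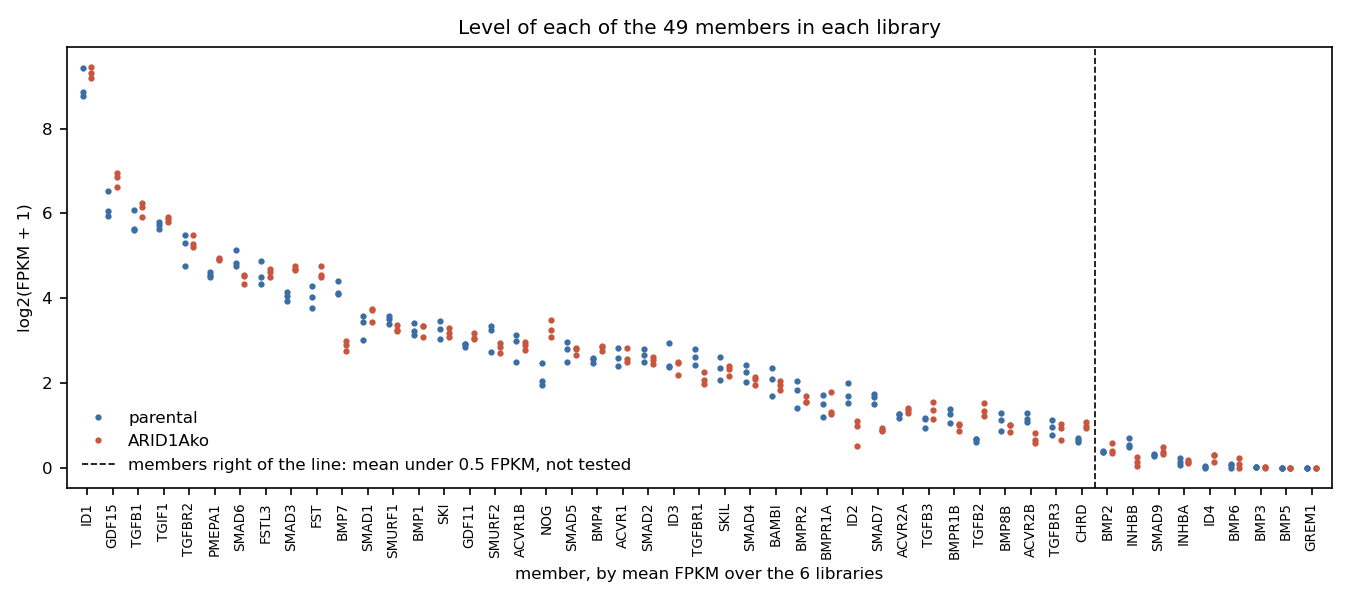
Level of each of the 49 members in each library, as log2(FPKM + 1) on the vertical axis, with members ordered by their mean FPKM over the 6 libraries. Points are libraries, blue for parental and red for ARID1Ako; ID1 lies far above all others, and the 9 members right of the dashed line had a mean under 0.5 FPKM and were not tested.

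Levels within the pathway ranged widely. ID1, a BMP-responsive inhibitor of helix-loop-helix transcription factors, was the only member with a mean over 100 FPKM, as the plot of levels by member shows. A mean of at least 10 FPKM was reached by 12 members, one between 1 and 10 FPKM by 25, and one between 0.5 and 1 FPKM by 3. BMP5 and the antagonist GREM1 were listed at 0 in every library. An exact 0 in these tables can be a failed estimate.

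Among the TGF-beta and activin ligands, TGFB2 rose. It measured 0.589, 0.517 and 0.600 FPKM in parental cells and 1.90, 1.33 and 1.54 FPKM in the ARID1Ako libraries. Every ARID1Ako value lay above every parental value, and the level stayed low in both groups. Group means of 0.569 ± 0.0454 and 1.59 ± 0.285 FPKM (SD, n = 3 each) gave a log2 change of 0.72 (SE 0.11, limma adjusted p = 0.00535). This log2 scale, with 1 FPKM added, understates the change of low genes, and with 0.1 FPKM added the value was 1.32.

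TGFB1, the ligand with the highest level of its branch, measured 48.6, 66.9 and 47.6 FPKM in parental and 59.0, 74.9 and 69.6 FPKM in ARID1Ako libraries. The groups overlapped, because parental library 2 lay above ARID1Ako library 1. The log2 fold change of 0.33 (SE 0.16) did not pass (limma adjusted p = 0.241), but did without parental library 2 (limma adjusted p = 0.0142). TGFB3 ranged from 0.904 to 1.26 FPKM in parental and 1.21 to 1.93 FPKM in ARID1Ako libraries and did not pass (limma adjusted p = 0.257). TGFB1 transcripts were thus measured at a far higher FPKM level than TGFB2 transcripts in both groups.

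INHBA and INHBB, which encode activin beta chains, were below the level needed for testing. INHBB, the beta B chain gene, measured 0.393, 0.446 and 0.620 FPKM in parental and 0.103, 0.0299 and 0.192 FPKM in ARID1Ako libraries. The groups did not overlap and the ratio of means was 4.50 in favour of parental cells. With no minimum mean, INHBB was called lower (limma adjusted p = 0.0183), in a fit that called 12.9% of 17832 rows. INHBA ranged from 0.0424 to 0.166 FPKM in the parental and from 0.0781 to 0.125 FPKM in the ARID1Ako libraries.

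BMP7 showed the largest fall among the called members. This ligand signals through BMP type I receptors and SMAD1, SMAD5 and SMAD9. BMP7 measured 16.1, 20.3 and 16.4 FPKM in parental and 5.70, 6.88 and 6.39 FPKM in ARID1Ako libraries. The lowest parental value lay far above the highest ARID1Ako value. Means were 17.6 ± 2.31 and 6.32 ± 0.589 FPKM (SD, n = 3 each), with a log2 change of -1.34 (SE 0.12, limma adjusted p = 0.000531). On chromosome 20 its 40 nearest tested neighbours had a median log2 fold change of 0.11. Among them, 5 were called higher and 0 lower, beside 7.82% and 8.11% of all genes tested.

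BMP4, another ligand of the BMP branch, differed in sign from BMP7. It measured 4.56, 4.92 and 4.98 FPKM in parental and 6.16, 6.28 and 5.78 FPKM in ARID1Ako libraries. The groups did not overlap, and the log2 fold change of 0.28 (SE 0.09) did not pass (limma adjusted p = 0.0760). GDF15, a stress-induced ligand of the family whose receptor is GFRAL, measured 60.3, 92.0 and 65.1 FPKM against 98.4, 124 and 115 FPKM. Its groups did not overlap either. It averaged 72.5 ± 17.1 and 112 ± 12.8 FPKM (SD, n = 3 each), and the log2 fold change was 0.64 (SE 0.18, limma adjusted p = 0.0578). GDF15 passed without parental library 2 (limma adjusted p = 0.00145) and with either scaling of the libraries (limma adjusted p = 0.00706 and 0.0224).

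Of the other ligands, GDF11, an activin-like ligand, ranged from 6.15 to 6.54 FPKM in parental and from 7.19 to 8.08 FPKM in ARID1Ako libraries (limma adjusted p = 0.174). BMP1, which is a protease that cleaves chordin and procollagen and not a ligand, had means of 8.59 ± 0.912 and 8.60 ± 0.973 FPKM (SD, n = 3 each). BMP8B ranged from 0.783 to 1.43 FPKM over the 6 libraries and did not pass. BMP2 ranged from 0.261 to 0.502 FPKM, and BMP3 and BMP6 reached 0.0162 and 0.166 FPKM at most. BMP7 and BMP4 were thus the BMP ligands with the highest FPKM in both groups, and their means moved from 17.6 and 4.82 FPKM in parental cells to 6.32 and 6.07 FPKM in ARID1Ako cells.

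**Figure D2:**
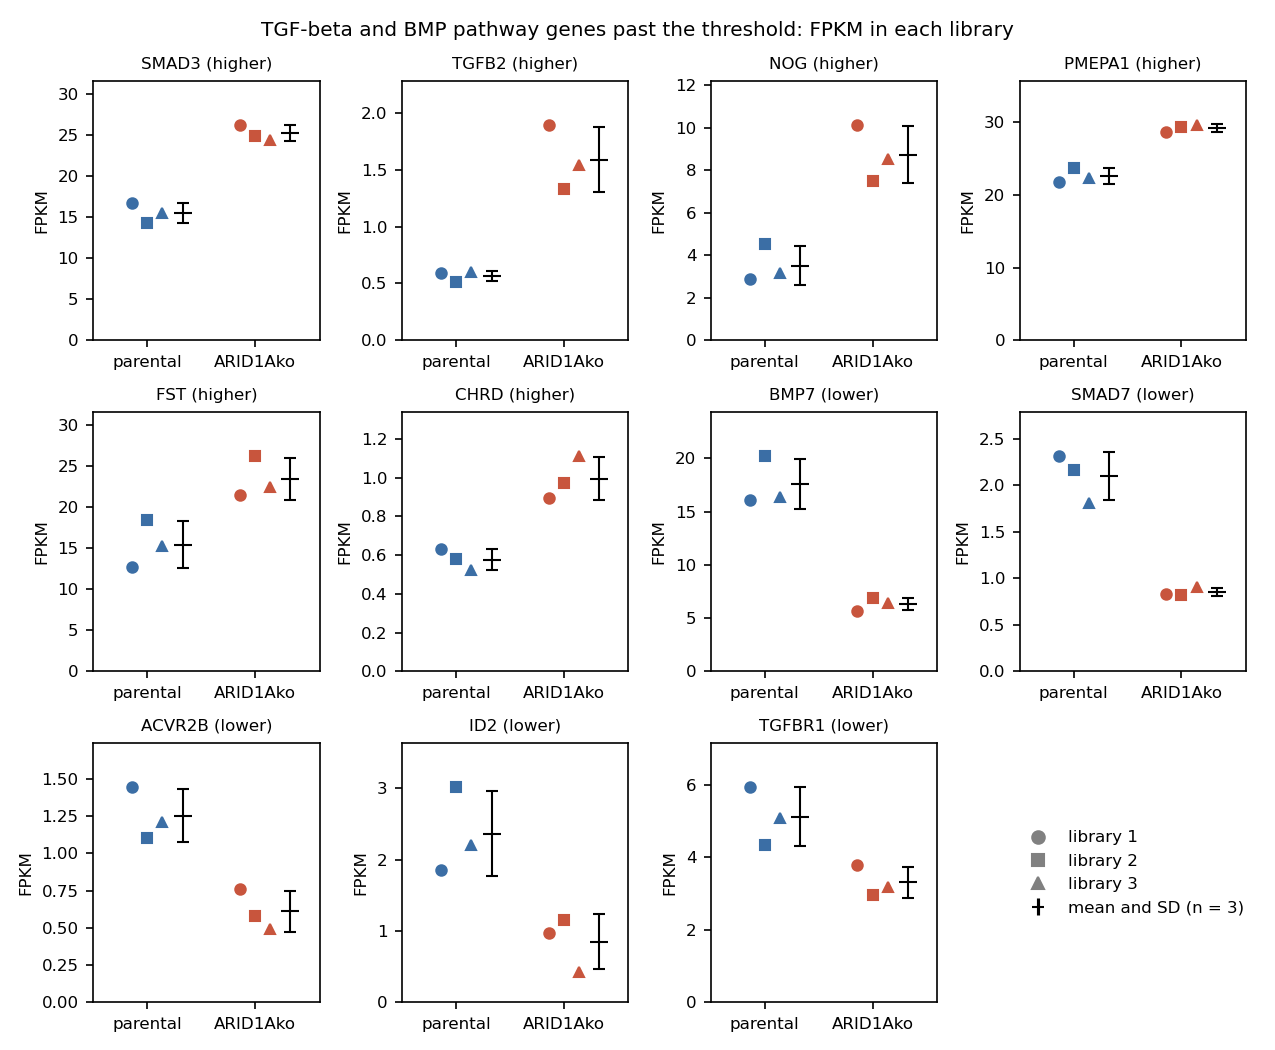
FPKM of the 11 called members in each library, with 1 panel per gene and a vertical axis that starts at 0. Symbols mark libraries 1, 2 and 3 of each group, and the bar shows the mean and SD (n = 3); in every panel the 3 parental values (blue) and the 3 ARID1Ako values (red) do not overlap.

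Of 10 receptor genes, 2 were called lower and none higher, and 8 did not pass, a count near the 15.9% called among all genes. TGFBR1, the type I receptor for TGF-beta, measured 5.95, 4.33 and 5.08 FPKM in parental and 3.78, 2.96 and 3.17 FPKM in ARID1Ako libraries. All parental values lay above all ARID1Ako values, although parental library 2 came close to ARID1Ako library 1. The log2 fold change was -0.50 (SE 0.13, limma adjusted p = 0.0460). The call ended when any single library other than parental library 2 was left out, with the minimum mean removed or raised to 3 FPKM, with scaling to the 75th percentile and without variance trend and robust moderation together (highest limma adjusted p = 0.165). Of its 40 neighbours on chromosome 9, 6 were called lower and 0 higher, beside 8.11% and 7.82% of all genes tested. The median log2 fold change of the neighbours was -0.12, and their part in the result was not tested.

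ACVR2B, a type II receptor for activins and related ligands, measured 1.45, 1.10 and 1.21 FPKM in parental and 0.764, 0.579 and 0.493 FPKM in ARID1Ako libraries. It was lower in each ARID1Ako library than in any parental library. The log2 fold change was -0.48 (SE 0.11, limma adjusted p = 0.0245), and the ratio of means was 2.05. Its call ended without parental library 1 or 3 or ARID1Ako library 2 or 3 (highest limma adjusted p = 0.106).

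TGFBR2, the type II receptor for TGF-beta and the receptor gene with the highest level, ranged from 25.9 to 43.9 FPKM in parental and from 36.0 to 44.2 FPKM in ARID1Ako libraries. Means were 36.1 ± 9.24 and 39.3 ± 4.38 FPKM (SD, n = 3 each), with groups that overlapped (limma adjusted p = 0.676). Its log2 fold change of 0.15 was -0.07 without parental library 2. It was called higher, at 0.29, with the length covariate (limma adjusted p = 0.0346), in a fit that called 32.4% of all genes tested. ACVR1 and ACVR1B, type I receptors for BMPs and for activins, ranged from 4.27 to 6.05 and from 4.66 to 7.82 FPKM over the 6 libraries. The BMP receptors BMPR1A and BMPR2 and the activin receptor ACVR2A lay between 1.27 and 3.12 FPKM, and the co-receptor TGFBR3 between 0.566 and 1.18 FPKM. BMPR1B ranged from 1.07 to 1.59 FPKM in parental and from 0.822 to 1.03 FPKM in ARID1Ako libraries, without overlap (limma adjusted p = 0.167), and was called lower without parental library 2 (limma adjusted p = 0.0378).

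SMAD3, which relays TGF-beta and activin signals, rose. It measured 16.7, 14.3 and 15.5 FPKM in parental cells and 26.3, 24.9 and 24.4 FPKM in the ARID1Ako libraries. The spread within each group was small beside the gap between them. Means were 15.5 ± 1.21 and 25.2 ± 0.969 FPKM (SD, n = 3 each), with a log2 change of 0.67 (SE 0.09, limma adjusted p = 0.00303).

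SMAD2, the partner of SMAD3 in the same branch, measured 5.99, 4.67 and 5.31 FPKM in parental and 5.09, 4.85 and 4.46 FPKM in ARID1Ako libraries. The groups overlapped (log2 fold change -0.12, SE 0.11, limma adjusted p = 0.534). SMAD4, the shared partner of both branches, measured 4.39, 3.07 and 3.76 FPKM against 3.38, 2.85 and 3.24 FPKM. SMAD4 groups overlapped too (log2 fold change -0.18, SE 0.13, limma adjusted p = 0.413), and the transcript was present in all 6 libraries. Whether SMAD2 and SMAD4 differ from SMAD3 in their response was not tested.

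In the BMP branch, SMAD1 ranged from 7.03 to 10.9 FPKM in parental and from 9.84 to 12.3 FPKM in ARID1Ako libraries, and SMAD5 from 4.58 to 6.81 and from 5.30 to 6.13 FPKM. Neither passed (limma adjusted p = 0.306 and 0.967). SMAD1 was called higher with the length covariate (limma adjusted p = 0.0212), in a fit that called 32.4% of all genes tested. SMAD9 lay under the minimum mean, at 0.223, 0.206 and 0.255 FPKM in parental and 0.409, 0.255 and 0.296 FPKM in ARID1Ako libraries. The lowest ARID1Ako value and the highest parental value of SMAD9 both round to 0.255 FPKM. With no minimum mean SMAD9 did not pass (limma adjusted p = 0.287).

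SMAD7, the inhibitory SMAD that acts on both branches and is induced by TGF-beta itself, fell. It measured 2.32, 2.16 and 1.81 FPKM in parental and 0.836, 0.817 and 0.904 FPKM in ARID1Ako libraries. The 3 ARID1Ako values were close together and each lay below every parental value. SMAD7 averaged 2.096 ± 0.260 and 0.852 ± 0.0460 FPKM (SD, n = 3 each), which is 2.46-fold lower, with a log2 change of -0.74 (SE 0.10, limma adjusted p = 0.00343). SMAD7 lies on chromosome 18 close to SMAD2, with 1 tested gene between them, and its 40 neighbours had a median log2 fold change of -0.07.

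SMAD6, the inhibitory SMAD of the BMP branch, was at a higher FPKM level than SMAD7. It measured 27.6, 34.1 and 26.0 FPKM in parental and 19.2, 22.1 and 22.3 FPKM in ARID1Ako libraries. No ARID1Ako value reached the lowest parental value, but the log2 fold change of -0.44 (SE 0.12) did not pass (limma adjusted p = 0.0569). It passed with quantile normalization or 75th percentile scaling (limma adjusted p = 0.0304 and 0.0299) and without parental library 2 (limma adjusted p = 0.0335). SMAD6 and SMAD3 are next to each other among tested genes on chromosome 15, with log2 fold changes of opposite sign. The 40 neighbours of SMAD3 had a median log2 fold change of -0.04. Among them, 0 were called higher and 1 lower, beside 7.82% and 8.11% of all genes tested.

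**Figure D3:**
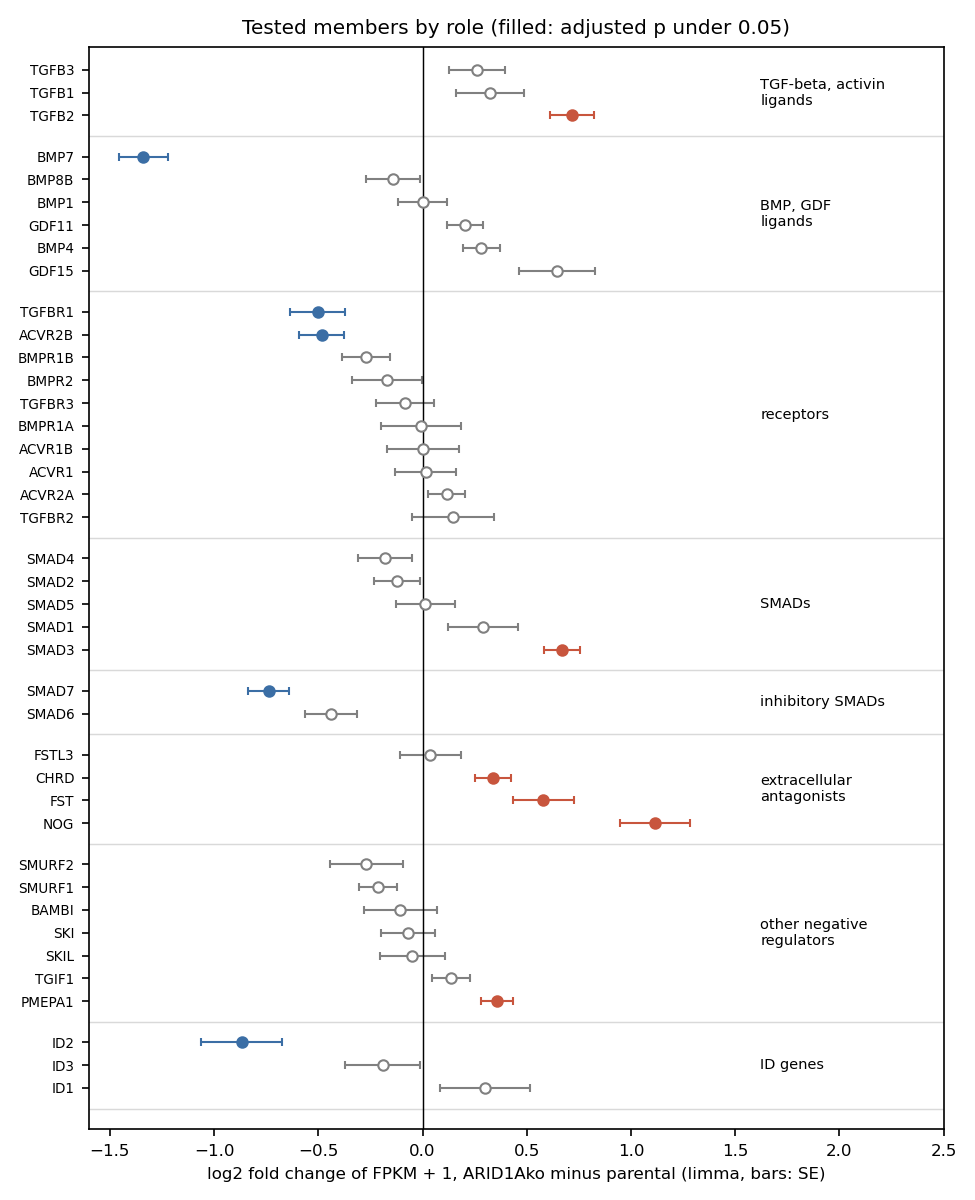
Log2 fold change of FPKM + 1 (ARID1Ako minus parental, horizontal axis) with its SE for the 40 tested members, grouped by role. Filled red points were called higher and filled blue points lower; among the extracellular antagonists NOG, FST and CHRD are filled and FSTL3 lies near 0.

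Of 4 tested secreted antagonists, 3 were called higher and none lower, beside 7.82% and 8.11% of all genes. NOG, which encodes noggin, an antagonist of BMPs, measured 2.87, 4.55 and 3.15 FPKM in parental and 10.2, 7.496 and 8.56 FPKM in ARID1Ako libraries. Parental library 2, the highest of its group, stayed below every ARID1Ako library. NOG averaged 3.52 ± 0.903 and 8.74 ± 1.34 FPKM (SD, n = 3 each), which is 2.48-fold higher, with a log2 change of 1.11 (SE 0.17, limma adjusted p = 0.00591). Its 40 neighbours on chromosome 17 had a median log2 fold change of -0.12, with 6 called lower and 1 higher.

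FST, which encodes follistatin, a binder of activins and some BMPs, measured 12.7, 18.4 and 15.2 FPKM in parental and 21.4, 26.2 and 22.4 FPKM in ARID1Ako libraries. In both groups library 2 was highest, and the groups did not overlap. The log2 fold change was 0.58 (SE 0.15, limma adjusted p = 0.0394). CHRD, which encodes the BMP antagonist chordin, measured 0.632, 0.580 and 0.522 FPKM against 0.898, 0.975 and 1.11 FPKM, with a log2 change of 0.34 (SE 0.09, limma adjusted p = 0.0427). The calls of FST and CHRD ended when any single library other than parental library 2 was left out (highest limma adjusted p = 0.141 and 0.171). The FST call also ended with no minimum mean and without variance trend and robust moderation together (highest limma adjusted p = 0.0543), and that of CHRD with 0.1 FPKM added or with quantile normalization (highest limma adjusted p = 0.0682). FSTL3, a follistatin-like binder of activins, ranged from 19.2 to 28.3 FPKM over the 6 libraries (limma adjusted p = 0.900).

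Of the 7 other negative regulators, PMEPA1 was called higher and 6 did not pass, a count near the 15.9% called among all genes. PMEPA1, a TGF-beta-induced membrane protein that sequesters SMADs, measured 21.7, 23.7 and 22.3 FPKM in parental and 28.6, 29.3 and 29.6 FPKM in ARID1Ako libraries. The change was small beside its level but larger than the spread (log2 fold change 0.36, SE 0.08, limma adjusted p = 0.0214). Its call ended when any single library other than parental library 2 was left out (highest limma adjusted p = 0.110). PMEPA1 and BMP7 lie on chromosome 20 with 2 tested genes between them, and their calls go in opposite directions.

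The ubiquitin ligases SMURF1 and SMURF2, which mark receptors and SMADs for breakdown, ranged from 8.28 to 10.9 and from 5.52 to 9.14 FPKM. Neither passed (limma adjusted p = 0.179 and 0.362), but SMURF2 was called lower without parental library 2 (limma adjusted p = 0.0133). The nuclear SMAD repressors SKI and SKIL ranged from 7.14 to 10.0 and from 3.17 to 5.06 FPKM (limma adjusted p = 0.769 and 0.874). BAMBI, a receptor decoy without kinase activity, ranged from 2.24 to 4.12 FPKM (limma adjusted p = 0.742). TGIF1, a transcriptional corepressor, ranged from 48.8 to 54.8 FPKM in parental and from 55.0 to 59.4 FPKM in ARID1Ako libraries, just without overlap (limma adjusted p = 0.375).

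Among the ID genes, which are direct targets of the BMP branch, ID2 fell and ID1 did not pass. ID2 measured 1.86, 3.02 and 2.21 FPKM in parental and 0.973, 1.16 and 0.424 FPKM in ARID1Ako libraries. The values varied widely within each group but did not overlap, and the log2 fold change was -0.87 (SE 0.19, limma adjusted p = 0.0260). Its call ended without parental library 3 or ARID1Ako library 1 or 3 (highest limma adjusted p = 0.0819). Of the 32 tested neighbours of ID2 on chromosome 2, 5 were called lower and 0 higher, beside 8.11% and 7.82% of all genes tested. The median log2 fold change of the neighbours was -0.19, and their part in the result was not tested.

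ID1 measured 435, 692 and 469 FPKM in parental and 589.9, 701 and 638 FPKM in ARID1Ako libraries. Parental library 2 lay within the ARID1Ako range, and the log2 fold change of 0.30 (SE 0.22) did not pass (limma adjusted p = 0.414). It passed without parental library 2 (log2 fold change 0.50, limma adjusted p = 0.0261). ID3 ranged from 4.17 to 6.69 FPKM and from 3.57 to 4.60 FPKM (limma adjusted p = 0.544). ID3 lies on chromosome 1 in the wider region of ARID1A, with 39 tested genes between them, and its 40 neighbours had a median log2 fold change of -0.22. ID4 was under the minimum mean, at 0.0178, 0 and 0.0349 FPKM in parental and 0.0979, 0.220 and 0.224 FPKM in ARID1Ako libraries, and was called higher with no minimum mean (limma adjusted p = 0.0343).

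Groups did not overlap for 19 of the 40 tested members (47.5%), beside 35.3% of all genes tested. The choice of members with earlier results known limits this share too. These were the 11 called members and 8 others, namely BMP4, GDF11, GDF15, ACVR2A, BMPR1B, SMAD6, SMURF1 and TGIF1. Of the 9 members under the minimum mean, BMP5 and GREM1 were at 0 throughout. Groups did not overlap for INHBB, SMAD9 and ID4 among the 7 others, beside 20.5% of the 5006 rows under that mean with a value above 0 in any library.

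**Figure D4:**
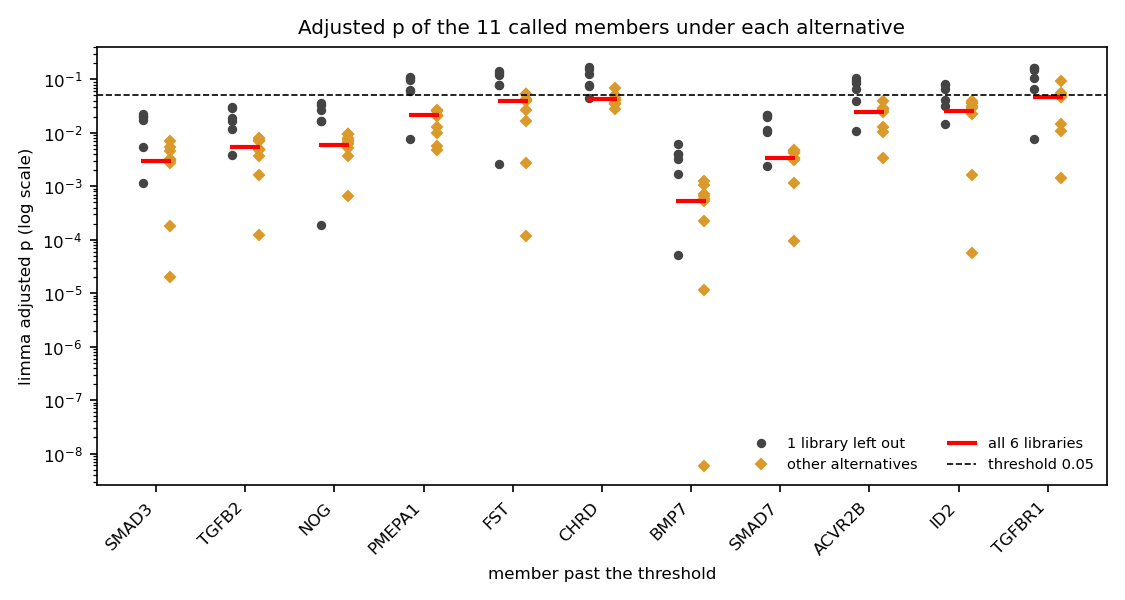
Limma adjusted p (log scale) of the 11 called members with all 6 libraries (red bar), with 1 library left out (dark circles) and under the other alternatives (orange diamonds), beside the threshold of 0.05. SMAD3, TGFB2, NOG, BMP7 and SMAD7 stay below the line in every fit in which they were tested. TGFBR1, CHRD, FST and PMEPA1 cross it when any single library other than parental library 2 is left out. ACVR2B and ID2 cross it when some of these libraries are left out.

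Further pathway genes were read from lists chosen with earlier results of these data known. Among other ligands, 3 of 17 rows could be tested. INHBE, which encodes the activin beta E chain, fell from 9.86 ± 0.379 to 4.11 ± 0.534 FPKM (SD, n = 3 each), with a log2 change of -1.09 (limma adjusted p = 0.000813). AMH, the gene of anti-Mullerian hormone, rose from 0.427 ± 0.243 to 1.22 ± 0.207 FPKM. It reached the minimum mean only through its ARID1Ako values, so its test (limma adjusted p = 0.0249) adds nothing to these levels. The AMH call ended when any single library other than parental library 2 was left out (highest limma adjusted p = 0.105).

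Of 10 tested genes for storage and release of TGF-beta, 1 fell, none rose and 9 did not pass, beside 15.9% of all genes called. LTBP4, which encodes a latent TGF-beta binding protein, measured 16.0, 16.5 and 14.3 FPKM in parental and 5.78, 6.58 and 7.03 FPKM in ARID1Ako libraries. The groups were far apart (log2 fold change -1.16, SE 0.10, limma adjusted p = 0.000535). None of the 3 tested other receptors and co-receptors (RGMB, NEO1 and CD109) passed the limma test.

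FSTL1, a follistatin-like secreted glycoprotein, was the 1 called gene among 4 tested other antagonists. It rose from 16.6 ± 2.08 to 23.9 ± 1.73 FPKM (SD, n = 3 each, limma adjusted p = 0.0248), and the call ended without parental library 3 or any single ARID1Ako library (highest limma adjusted p = 0.101). Among 22 tested intracellular regulators, 2 rose, 1 fell and 19 did not pass, a count near the 15.9% called among all genes. CDKN2B, an inhibitor of cyclin-dependent kinases and a TGF-beta target, rose from 8.36 ± 0.835 to 19.4 ± 1.499 FPKM (log2 fold change 1.12, limma adjusted p = 0.000633). FKBP1A, which binds type I receptors and holds them inactive, rose from 104 ± 16.0 to 157 ± 5.77 FPKM (limma adjusted p = 0.0295) and was no longer called when 1 library was left out, parental library 2 excepted (highest limma adjusted p = 0.132). RUNX3, a transcription factor that works with SMADs, fell from 10.9 ± 0.382 to 6.98 ± 0.444 FPKM (limma adjusted p = 0.00532).

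Of 15 tested genes known as TGF-beta targets, 9 were called higher and 1 lower (beside 7.82% and 8.11% of all genes), and 5 did not pass, with a median log2 fold change of 1.06 beside -0.01 for all genes tested. Several of these targets were already known to rise in these libraries when the list was drawn up, so the count is not independent evidence of a direction. COL1A2, a chain of type I collagen, measured 0.113, 0.0642 and 0.0985 FPKM in parental and 42.2, 43.1 and 43.9 FPKM in ARID1Ako libraries. PDGFB, a growth factor for mesenchymal cells, rose from 3.34 ± 0.359 to 24.8 ± 1.33 FPKM, and CTGF, a matricellular factor, from 4.45 ± 0.433 to 25.0 ± 2.45 FPKM (SD, n = 3 each). COL1A2 reached the minimum mean only through its ARID1Ako values, so it had to differ, and its test adds nothing to these levels. The 9 higher calls and the median above include COL1A2. The limma adjusted p was 1.3e-05 for PDGFB and 3.59e-05 for CTGF.

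Genes known as BMP targets other than the ID genes had 2 of 5 tested members higher and 1 lower, beside 7.82% and 8.11% of all genes. HEY1, a transcriptional repressor that Notch signals also induce, rose from 7.66 ± 0.564 to 34.2 ± 1.65 FPKM (log2 fold change 2.02, limma adjusted p = 2.34e-05). GATA2, a zinc finger transcription factor, rose from 11.6 ± 0.643 to 18.0 ± 0.400 FPKM (limma adjusted p = 0.00341). UNC5B, a netrin receptor gene, fell from 9.36 ± 1.45 to 1.01 ± 0.154 FPKM (log2 fold change -2.36, limma adjusted p = 6.84e-05). The homeobox genes MSX1 and MSX2, readouts of BMP signals that were singled out after their values were seen, had means of 4.44 ± 1.001 and 4.17 ± 0.334 FPKM and of 18.9 ± 1.06 and 18.0 ± 0.790 FPKM (SD, n = 3 each) and did not pass (limma adjusted p = 0.832 and 0.647).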

How the data were processed

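Messenger RNA was profiled in 6 libraries, 3 per group, and titles gave the groups and replicate numbers. TRIzol RNA went into a poly(A)-capturing TruSeq kit that does not mark strand, per the labels' protocols. The authors deposited FPKM values by gene symbol, 1 table a library. The submitters' processing notes name build GRCh37, Cuffdiff 2.2.1.5, Cuffnorm 2.2.1.2 and TopHat2 2.1.1. Not given in the sources used here were the annotation, the scaling between libraries and total fragments. Each table held 23273 rows, of which 28 had symbols turned into dates and were left out.

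FPKM values are not counts, so limma 3.58.1 (R 4.3.3), with variance trend and robust moderation, was used on log2(FPKM + 1), with no covariate beside group. It tested 12826 genes averaging 0.5 FPKM or more, two-sided, with Benjamini-Hochberg adjustment over all of them. The procedure was tested on simulated data with noise drawn independently for each gene and library. That test does not cover shifts shared by many genes of a library. Fold changes in FPKM are ratios of group means. Members and gene lists were chosen with earlier results of these data known. Values per library are given for called members, SMAD7, NOG, SMAD2, SMAD3, SMAD4, the 3 members with the highest mean and untested members whose groups do not overlap; from other lists up to 4 called genes are named, and some genes of these lists are not reported here. SMAD6 and BMP4 were given in full after their values were seen. Gene order came from RefSeq (GRCh38.p14), with 20 tested genes on each side as neighbours and a place for 96.7% of tested genes. Transcript lengths (the longest GENCODE transcript) were matched by symbol, for 96.0%. Each library, the pseudocount, the filter, the scaling, the variance model, a replicate block and a length covariate were varied.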

Additional observations from a re-analysis of the deposited data

How the results depend on the processing

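Over 827 alternative fits of 56 genes, the 40 tested members among them, 49 calls were lost, 20 were gained and 32 fold changes turned their sign, none of the latter in a called member. With 1 library left out, the log2 fold change ranged from -0.057 to 0.088 for BMP1, -0.069 to 0.30 for TGFBR2, -0.17 to 0.027 for TGFBR3, -0.088 to 0.12 for ACVR1, -0.19 to 0.13 for ACVR1B, -0.17 to 0.12 for BMPR1A, -0.12 to 0.12 for SMAD5, -0.078 to 0.19 for FSTL3, -0.28 to 0.048 for BAMBI, -0.18 to 0.032 for SKI, -0.19 to 0.082 for SKIL and -0.15 to 0.086 for MSX1. With the length covariate it also turned for BMP1 (-0.041), BMPR1A (0.092), FSTL3 (-0.062), SKI (0.0069) and SKIL (0.051), and for BMPR1A with 75th percentile scaling (0.0045). No direction is read from these genes, and the cause was not tested. The count of higher members, 6 of 40, was 10 with the replicate number as a block and 10 with the slope of each library on transcript length as a covariate, and 3 to 9 with 1 library left out. The count of lower members, 5 of 40, was 1 of 28 with a minimum mean of 3 FPKM, a filter that leaves SMAD7, ID2 and ACVR2B untested, and 2 to 8 with 1 library left out. All genes called, 2043, numbered 4049 with the block, 4161 with the length covariate and 964 to 4079 with 1 library left out. Deviations of same-numbered libraries from their group means correlated across genes at 0.22, 0.22 and -0.01. Those of differently numbered libraries correlated at -0.27 to 0.08. The numbers were not taken to pair the libraries, because the labels do not say that a number marks a shared culture, batch or day. These correlations do not settle whether it does. With the block, BMP4, GDF15, SMAD1, TGFB1 and SMAD6 passed as well. With the length covariate, BMP4, GDF15, SMAD1, TGFBR2 and SMAD6 did. Of the untested members, INHBB had a log2 difference of -0.42, and -1.55 and -0.70 with 0.1 and 0.5 FPKM added; ID4 had 0.21, and 1.23 and 0.39; SMAD9 had 0.10, and 0.34 and 0.17. The median log2 fold change of all genes stayed between -0.02 and 0.00 in all fits. Depth is unknown, so low values such as those of TGFB2, CHRD and ACVR2B rest on the spread between libraries alone.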
